A study of Arabidopsis thaliana with 8 samples.

Results

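The probes described here moved in opposite directions in single treatments of Arabidopsis thaliana seedlings: relative to control, their level was 2-fold or more up in the ANAC096 line and 2-fold or more down with abscisic acid (ABA). Of 43603 probes on the array, 45 (0.103%) met both conditions while being well above background on both ANAC096 arrays. The members were chosen by the ANAC096 and ABA differences from control, so those differences are given as a description with no test. The ANAC096+ABA arrays took no part in the choice, and the question is where their levels fell between the opposed single changes.

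Whole 12-day-old seedlings of Col-0 in liquid MS medium were measured with 8 one-colour Agilent arrays, 2 in each of 4 groups. The ANAC096+ABA group was the pTA-ANAC096 line, given 30 µM dexamethasone for 1 h with 2 µM ABA added for its last 30 min. The ANAC096 group was the same line with dexamethasone but no ABA. The ABA group carried the empty pTA vector and received dexamethasone and ABA as in ANAC096+ABA, and the control group was the empty vector with dexamethasone alone. Every group was therefore transgenic and treated with dexamethasone, and a difference between the lines before dexamethasone cannot be told apart from an effect of inducing ANAC096. The sources used here do not say how many independent transformed lines were used or how seedlings were pooled, and the p-values cover only the spread between arrays. In RNA from whole seedlings, fewer cells of a type and less RNA per cell cannot be told apart.

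ABA is a hormone by which plants respond to lack of water. It binds soluble receptors of the PYR/PYL family, which then block a clade of protein phosphatases; SnRK2 kinases are thereby released and phosphorylate bZIP transcription factors that act on ABA response genes. NAC proteins are a large plant-specific family of transcription factors with a conserved DNA-binding domain, and several act in stress responses. The pTA vectors carry a transgene under a steroid-inducible promoter, which dexamethasone switches on. The files give each probe only the array maker's identifier, and 0 of them occur in the RefSeq gene table at hand, so no probe is paired with a gene, its sequence or its position in the genome. The gene lists and tissue markers planned for named genes were not analysed here.

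Between 32963 and 34960 of the 43603 probes per array were well above background, with 0 saturated spots. Levels are log2 signals relative to each array's 75th percentile, which was a signal of 5252 to 8128. Arrays with ABA had a higher detection limit: the lowest level well above background was -7.41 to -7.21 on the arrays with ABA, against -8.17 to -7.74 on those without. They lay in a slide row of their own, so row and ABA cannot be told apart, and the lines lay in different slide columns. The E1A spike-in controls averaged -2.82 and -2.65 in ANAC096+ABA, -2.14 and -2.31 in ANAC096, -2.44 and -2.53 in ABA, and -2.79 and -2.82 in control. Scaling to them shifted the median difference from control over all tested probes by -0.07 in ANAC096+ABA, -0.58 in ANAC096 and -0.32 in ABA, and changes below are relative to the 75th percentile.

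The 45 members are numbered from 1 to 45 by their log2 difference between ANAC096+ABA and control, from the lowest to the highest. The ANAC096 minus control difference ran from 1.03 to 3.69 with a median of 1.43, and the ABA minus control difference from -2.29 to -1 with a median of -1.22. At the edges of the choice, the members with the smallest ANAC096 difference had 1.03, 1.04 and 1.04, and the nearest probes left out had 0.9973, 0.9951 and 0.97. The smallest ABA differences among members were -1.0008, -1.0046 and -1.01, and the nearest left out were -0.9975, -0.9938 and -0.97.

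Many members were too dim to be measured in every group. A probe counted as well above background on an array if all its spots were marked so, and is called below background otherwise. In all, 19 members were well above background on all 8 arrays (42.2% of the 45, where 92.5% of tested probes were). Of the other 26, 20 were below background on both ABA arrays, so their fall with ABA has only a bound. Control was well above background on both arrays for 13 of these 20, and by the bound the fall was 2-fold or more for 0 of them, over 1-fold but under 2-fold for 7, and without any bound over 1 for 6. Control itself was below background on both arrays for 2 members and on 1 array for 5. The description therefore rests on the 19 members measured on all arrays, and values of the others are given separately.

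Replicates lay close together in the 19. The median SD over the 2 arrays of a group was 0.05 in ANAC096+ABA, 0.04 in ANAC096, 0.05 in ABA and 0.08 in control on the log2 scale. Among the other 26 the medians were 0.15, 0.08, 0.15 and 0.17 in the same groups. In members 19 and 35 the ANAC096 arrays differed by over 2-fold. Member 19 had -7.61 and -2.66 in ANAC096, against -8.3 and -7.04 in control, and member 35 had -7.3 and -4.27 in ANAC096, against -7.23 and -7.75 in control. Their place among the members rests on ANAC096 replicate 2, and replicate 1 lay only 0.06 and 0.2 above the control mean.

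Members were printed once or in duplicate on the array. Duplicate spots were present for 14 of the 45 (31.1%, against 41.4% of all probes), and their levels on the same array differed by a median of 0.21 (log2), at most 1.77. Of the 19, 16 had a single spot. The 59 spots of the members lay in array rows 17 to 382 of 384 and columns 4 to 164 of 164, and 0 of them were marked as outliers on any array.

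With both treatments some members were far below control and others above it. Over all 45, the ANAC096+ABA minus control difference had a median of -0.75 and ran from -5.15 to 2.16, beside a median of -0.09 over all 34714 tested probes. The members' median was -0.22 with normexp background correction and -0.43 in the authors' deposited table. In limma, 24 members were lower and 6 higher in ANAC096+ABA than in control (37.0% and 24.6% of all tested probes), and 15 were not called. With a minimum of 2-fold, 17 were lower (37.8%, against 5.65% of tested probes) and 3 higher (6.67%, against 8.09%). Of the 17, 8 were below background on both ANAC096+ABA arrays, and for 3 of these 8 the bound of the fall was 2-fold or more. Among the 19 members measured on all arrays, 13 were lower, 7 of them by 2-fold or more, 4 were higher and 2 not called, with a median difference of -0.64. These comparisons share the control arrays with the choice of members.

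To place ANAC096+ABA between the single treatments, its distance from the ABA mean was divided by the distance from ABA to ANAC096, so that 0 is the ABA level and 1 the ANAC096 level. Among the 19, ANAC096+ABA lay below the ABA level for 7, between the levels for 10 and above the ANAC096 level for 2. The median place was 0.269. Of the 10 in between, 9 lay in the lower part, at 0.21 to 0.43, and 1 in the upper part, at 0.7.

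The 7 members below the ABA level were higher in ANAC096 than in control, but when ABA was present the ANAC096 line had the lower level of the lines. Their ANAC096+ABA minus control differences ran from -5.15 to -1.65 (median -3.04), where ABA alone had -1.77 to -1.08. Levels below ABA, control and ANAC096 follow from the choice of members and of these 7. Limma called 6 of the 7 lower than ABA, in the direction that placing them below the ABA level fixes. Both ANAC096+ABA arrays lay below both ABA arrays in 7 of the 19 (36.8%), beside 17.2% of the 2022 probes measured on all arrays that were 2-fold or more up in ANAC096 against control; these shares were not tested against each other. In member 13, the one not called against ABA, ANAC096+ABA was 0.32 below ABA on the log2 scale (SE 0.1, limma adjusted p 0.0504). Over all 45 members, 10 were called lower in ANAC096+ABA than in ABA (22.7% of all tested probes) and 23 higher (22.1% of all tested probes), and among the 19, 6 were lower and 12 higher. The ABA arrays enter both this comparison and the choice of members, which were chosen as low there, and 20 of the 45 were below background on both of them.

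A_84_P16247, member 1, had the largest fall. Its level was -5.95 and -6.09 in ANAC096+ABA, 0.95 and 0.95 in ANAC096, -2.67 and -2.6 in ABA, and -0.8 and -0.94 in control. No arrays of different groups overlapped, and the line had its highest level without ABA and its lowest with ABA. In ANAC096+ABA it was 35.5-fold lower than in control (log2 -5.15, SE 0.07, limma adjusted p 1.9e-07). It was 10.5-fold lower than in ABA (log2 -3.39, adjusted p 3.0e-06) and 125-fold lower than in ANAC096 (log2 -6.97, adjusted p 6.6e-07).

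A_84_P573393, member 3, had the same order of groups. It stood at -2.9 and -2.96 in ANAC096+ABA, 2.17 and 2.13 in ANAC096, -0.24 and -0.2 in ABA, and 0.77 and 0.94 in control. The single changes were 2.45-fold up in ANAC096 and 2.11-fold down in ABA, both against control, and with both the level was 13.8-fold lower than control (log2 -3.79, SE 0.07, limma adjusted p 3.5e-07). Against ABA it was 6.55-fold lower (log2 -2.71), a description for the same reasons.

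Members 6, 11 and 13 had the same order of groups. Member 6 had -4.94 and -4.92 in ANAC096+ABA, -0.37 and -0.4 in ANAC096, -3.57 and -3.75 in ABA, and -1.91 and -1.87 in control. Member 11 had -7.14 and -7.11 in ANAC096+ABA, -3.51 and -3.56 in ANAC096, -6.78 and -6.4 in ABA, and -5.11 and -5.24 in control. Member 13 had -5.44 and -5.72 in ANAC096+ABA, -2.78 and -2.65 in ANAC096, -5.26 and -5.27 in ABA, and -3.87 and -3.99 in control. Member 11 was near the detection limit with both treatments, and the ANAC096+ABA arrays of member 13 were farther from each other than the higher of them was from ABA.

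Some members that were below background in ANAC096+ABA showed falls of this size as bounds. Members 2, 4 and 8 were well above background in control and not on either ANAC096+ABA array. They were at least 10-fold, at least 5.69-fold and 5.89-fold lower in ANAC096+ABA than in control (limma adjusted p 2.77e-06, 5.17e-05 and 8.05e-05). Each bound takes the mean of the brighter group over, per array, the higher of the probe's own signal and the lowest level well above background. Against ANAC096, the same members were at least 22.8-fold, at least 18.7-fold and 45.9-fold lower. For member 8 the probe's own signal was the higher on both ANAC096+ABA arrays, so its values are the measured differences. In all, 17 members were below background on both ANAC096+ABA arrays, and 10 of these were at least 2-fold lower than ANAC096 by the bound.

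The 9 members in the lower part between the levels had ANAC096+ABA close to, or moderately below, control. Their differences from control ran from -0.94 to 0.17 with a median of -0.6, and limma called 6 lower, 1 higher and 2 neither. They lay 0.62 to 1.3 above ABA on the log2 scale and differed from ANAC096 by -3.52 to -1.44, in directions that placing them between the levels fixes. In these probes ABA was followed by a lower level in either line, and the ANAC096 line had the higher level with and without ABA. Members 24, 25 and 26 had nearly equal changes, with ANAC096+ABA minus control at -0.64, -0.62 and -0.6, ANAC096 minus control at 1.06, 1.12 and 1.07, and ABA minus control at -1.43, -1.36 and -1.35. Member 24, for example, had -0.76 and -0.75 in ANAC096+ABA, 0.98 and 0.92 in ANAC096, -1.48 and -1.61 in ABA, and -0.1 and -0.13 in control.

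Members 20, 23, 29 and 34 belonged to the same class. Member 20 had -3.47 and -3.52 in ANAC096+ABA, -1.14 and -1.03 in ANAC096, -4.18 and -4.06 in ABA, and -2.64 and -2.48 in control. Member 34, whose ANAC096+ABA level was not called different from control (log2 -0.07, SE 0.1, limma adjusted p 0.57), had -4.26 and -3.98 in ANAC096+ABA, -2.64 and -2.59 in ANAC096, -5.18 and -5.28 in ABA, and -4.04 and -4.05 in control. In both, the 4 groups kept the order ANAC096, control, ANAC096+ABA and ABA by their means, and in member 34 the ANAC096+ABA arrays lay on both sides of control. The 1 member of the upper part, number 39, had -4.6 and -4.68 in ANAC096+ABA, -4.04 and -3.99 in ANAC096, -6.08 and -6.06 in ABA, and -5.11 and -5 in control, so that ANAC096+ABA exceeded control by 0.42 (log2, SE 0.06, limma adjusted p 0.0011).

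In 4 of the 19 members the level in ANAC096 was 8-fold or more above control, and with ABA they took different levels. Member 5 had -5.03 and -5.09 in ANAC096+ABA, 1.24 and 1.12 in ANAC096, -3.03 and -3.08 in ABA, and -2.01 and -1.91 in control. Member 7 had -5.93 and -5.99 in ANAC096+ABA, 0.09 and 0.19 in ANAC096, -4.27 and -4.3 in ABA, and -3.32 and -2.77 in control. Both were lower with both treatments than in any other group, at 8.57-fold and 7.54-fold below control (limma adjusted p 5.4e-07 and 2.5e-05).

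Members 36 and 37 ended near the control level instead. Member 36 had -5.91 and -5 in ANAC096+ABA, -2.54 and -2.53 in ANAC096, -6.81 and -6.69 in ABA, and -5.66 and -5.59 in control, the ANAC096+ABA arrays lying on both sides of control (log2 difference 0.17, SE 0.27, limma adjusted p 0.61). Member 37 had -1.42 and -1.4 in ANAC096+ABA, 2.11 and 2.12 in ANAC096, -2.71 and -2.56 in ABA, and -1.57 and -1.59 in control. Relative to control it was 12.9-fold up in ANAC096, and 1.13-fold up in ANAC096+ABA (log2 0.17, SE 0.06, limma adjusted p 0.043). Relative to ANAC096, ANAC096+ABA was 7.56-fold lower for member 36 and 11.5-fold lower for member 37. Both were chosen as high in ANAC096, so these differences are given as a description.

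By at least 2-fold, 3 members were called higher in ANAC096+ABA than in control (6.67%, against 8.09% of all tested probes). A_84_P14652, member 45, had -2.71 and -2.67 in ANAC096+ABA, -3.74 and -3.74 in ANAC096, -6 and -6.02 in ABA, and -4.85 and -4.86 in control. The highest levels were those with both treatments, with no overlap between groups. Both ANAC096+ABA arrays lay above both ANAC096 arrays in 1 of the 19 members (5.26%), beside 8.99% of the 434 probes measured on all arrays that were 2-fold or more down in ABA against control. A_84_P14652 was 4.48-fold higher in ANAC096+ABA than in control (log2 2.16, SE 0.04, limma adjusted p 3.9e-07) and 2.07-fold higher than in ANAC096 (adjusted p 1.4e-05). Against ABA, where members were chosen as low, it was 9.95-fold higher, given as a description. The probe was named for its high ANAC096+ABA level. It was the only one of the 45 called higher in ANAC096+ABA than in ANAC096, beside 22.2% of all tested probes. With normexp background correction and in the authors' table, the fall of A_84_P14652 in ABA against control was under 2-fold. With spike-in scaling its rise in ANAC096 against control was under 2-fold, so it missed the thresholds of the choice in each of these settings.

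A_84_P14072, member 43, had -2.87 and -2.79 in ANAC096+ABA, -3.14 and -2.86 in ANAC096, -5.58 and -5.41 in ABA, and -4.3 and -4.17 in control. It was 2.65-fold higher in ANAC096+ABA than in control (log2 1.41, SE 0.11, limma adjusted p 9.4e-05). Against ABA, where members were chosen as low, it was 6.32-fold higher, given as a description. Against ANAC096 the log2 difference was 0.17 (SE 0.11, adjusted p 0.25), which became 0.39 with normexp background correction, 0.47 in the authors' table and 0.68 with spike-in scaling, past the threshold in each (adjusted p 0.012, 0.0024 and 0.0025). In the same settings member 43 missed the thresholds of the choice. Its fall in ABA was under 2-fold with normexp and in the authors' table, as was its rise in ANAC096 with spike-in scaling. Member 44 was below background on both ABA arrays, and had -5.67 and -5.4 in ANAC096+ABA, -5.14 and -5.25 in ANAC096, and -7.18 and -6.89 in control. It was 2.83-fold higher in ANAC096+ABA than in control (log2 1.5, SE 0.15, adjusted p 2.95e-04), and at least 3.43-fold higher than in ABA.

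ABA in the ANAC096 line was accompanied by lower levels of most members. In limma, 38 of the 45 were lower in ANAC096+ABA than in ANAC096 (23.0% of all tested probes), 35 of them by at least 2-fold (4.14% of all tested probes), and 6 were not called. The median difference was -2.21, against -0.01 over all tested probes. For probes with 1 of the 2 conditions, it was 0.01 over the 2506 up in ANAC096 and -0.66 over the 743 lower in ABA. Among the 19 the median was -2.41, with 17 lower, 1 higher and 1 not called. The ANAC096 arrays enter both this comparison and the choice of members, and members were chosen as high there. A lower level in ANAC096+ABA was thereby favoured, and only 38 of the 45 would have been tested without the ANAC096 group.

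Had the single log2 changes simply added up, the 19 members would have had a median difference from control of 0.02 with both treatments. The measured level lay below the sum for 16 and above it for 3, with a median of -0.85 relative to the sum and a range of -5.21 to 2.2. It was below the sum by 2-fold or more for 9 and above it by as much for 2. The median relative to the sum was -0.97 for the 2506 probes 2-fold or more up in ANAC096 and well above background there, and 0.05 over all 34714 tested probes. No test is attached to these values, since the sum is made of the changes that chose the members.

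Other probes with only one of the conditions give the surroundings. Of the 2506 probes 2-fold or more up in ANAC096 against control and well above background on both ANAC096 arrays, 63.4% were also 2-fold or more above control in ANAC096+ABA and 3.55% were as far below. Of the 743 probes at least 2-fold lower in ABA and well above background in control, 71.3% were 2-fold or more below control in ANAC096+ABA and 0.808% as far above. Among the 19 members measured on all 8 arrays, 36.8% were 2-fold or more below control and 10.5% as far above. For all members the shares were 42.2% and 6.67%, counting signals below background at their measured value. Of 10 members well above background in control but below it on both ANAC096+ABA arrays, 3 were 2-fold or more below control by the bound. The opposite pattern, lower in ANAC096 and higher in ABA, was met by 9 probes well above background on both ABA arrays, and by 3 well above background on all 8. With both treatments, 4 of the 9 were 2-fold or more below control and 2 as far above. These shares overlap in their probes and share arrays, and their differences were not tested.

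Membership changed with the background correction and with the scaling. With normexp background correction 11 probes met the same thresholds, 10 of them among the 45, and 14 probes met them in the authors' deposited table, 13 of them among the 45. With spike-in scaling 34 probes met them and 15 were among the 45: the ANAC096 difference was then at least 2-fold for 15 members, while it stayed above 0 for all 45 and the ABA difference stayed at least 2-fold for all 45. Of the 19 members measured on all arrays, 9 met the thresholds with normexp correction, 10 in the authors' table, 16 with quantile normalization and 6 with spike-in scaling. The median ANAC096+ABA minus control difference of these 19 was -0.65, -0.64, -0.64 and -0.71 under the 4 settings, against -0.64.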

How the data were processed

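For each array the authors deposited a scanner file of spot intensity values, extracted by Agilent Feature Extraction per the file headers, and flags (marked 0 or 1, an other kind of value) per spot. They also deposited a table of log2 values, which equals quantile-normalized log2 median signals within 5.0e-09. Here log2 of the background-subtracted processed signal minus each array's 75th percentile over all 62976 spots was averaged over the spots of a probe, leaving out 1319 control spots. The 34714 probes that a group showed well above background on both its arrays were fitted with limma 3.58.1 (R 4.3.3, lmFit and eBayes, 4 group means). Benjamini-Hochberg adjustment ran over all of them, at a threshold of 0.05. All 45 members passed this filter because the choice required it, and 38 would have passed without the ANAC096 group. The smallest two-sided p of an exact permutation of 2 against 2 arrays is 0.33. Normexp (offset 50) used median signals, since the files hold no mean signals. The fit was tested on simulated data. Spots marked as outliers were left out of the fit, 0 of them from members. The members and lists were chosen with earlier results of these data known. The 4 probes named are the 2 highest and 2 lowest in ANAC096+ABA against control among members well above background on all 8 arrays; other members are given by number. The array number limits the precision.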

Additional observations from a re-analysis of the deposited data

Results flagged for a closer look

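In 7 of the 19 members measured on all arrays, both ANAC096 arrays lay above both control arrays while both ANAC096+ABA arrays lay below both ABA arrays, so the line difference ran one way without ABA and the other way with it. The first part of this was fixed by the choice of members. All 7 had a single spot on the array. Among the 2022 probes measured on all arrays that were 2-fold or more up in ANAC096 against control, 17.2% had ANAC096+ABA below ABA in this way.

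In 1 of the 19, A_84_P14652, both ABA arrays lay below both control arrays and both ANAC096+ABA arrays above both ANAC096 arrays. Among the 434 probes measured on all arrays that were 2-fold or more down in ABA against control, 8.99% had ANAC096+ABA above ANAC096 in this way. In neither case was the difference between the effects itself tested, because the single changes in it chose the members. Groups of 2 arrays are too small to look for single arrays that stand apart.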

How the results depend on the processing

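The thresholds were met by 11 probes after normexp correction, by 14 in the authors' table, by 19 if every array had to be well above background, by 201 at 1.5-fold and by 4 at 3-fold. They were met by 25 where a fall below background counted by its bound, a setting chosen after seeing the data. Leaving out 1 of the 6 arrays that chose the members kept 33 to 43 of the 45 (15 to 19 of the 19). The median ANAC096+ABA minus control difference was -0.22 after normexp and -0.43 from the authors' values. The median place was 0.223 after normexp, 0.246 from the authors' values and 0.388 by spike-in scaling. Under each of these 3 settings 2 members were called higher than ANAC096, against 1. Testing only probes measured on every array left 19 members, 13 of them lower than control, 12 higher than ABA and 17 lower than ANAC096. The cause was not tested, except that fewer members were tested there. The other 129 alternative values of counts and medians stayed within 1.5 times or 1 SD, and none changed sign. For the number of members this compares set sizes and not which probes they hold. Of the 34 probes with spike-in scaling 15 were among the 45, and of the 41 with quantile normalization 32 were. With the replicate number of the titles as a block, 24 members were lower and 5 higher than control, and no call of the 4 named probes changed. The deviations of same-numbered arrays correlated at -0.09 to 0.06, so the numbers were not taken as pairs. Leaving out 1 array gave 24 to 26 members lower and 5 to 7 higher than control. Signal over background limits 26 of the 45 members.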
